A study of Mus musculus with 6 samples.

Results

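The *Slc22* and *Slco* genes encode the organic ion carriers of the kidney, and 38 of the 54532 genes in the deposited mouse kidney table belonged to these families. They were taken as the protein-coding genes whose symbol begins with *Slc22a* or *Slco* and a digit, with *Slc22a12* left out. They comprised 12 *Slc22* genes of the anion class, 8 of the cation and carnitine class, 4 other *Slc22* genes and 14 *Slco* genes. The comparison set KsprtTA/TRE-Adiponectin mice (KSPAPN) against KsprtTA mice that lack the TRE-Adiponectin transgene (Control, labelled WT), and whole kidneys were used. In both groups the Ksp promoter drives the rtTA activator in tubular epithelium from proximal tubule to collecting duct, and both received doxycycline at 600 mg/kg chow for 4 days, so that adiponectin is induced only where the TRE transgene is present. All mice were males on a C57BL/6 background, their age is not given for these libraries, and each of the 3 libraries per group pooled 3 animals, 9 mice per group. The 6 libraries were poly(A)-selected RNA-seq, and p-values here measure the spread between pools.

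Renal organic ion carriers clear drugs, toxins and metabolic wastes from blood into urine. Basolateral organic anion transporters exchange a substrate in blood for a dicarboxylate in the cell, organic cation transporters take up their substrates down the membrane potential, and separate apical carriers and pumps complete secretion. The *Slco* family, the organic anion transporting polypeptides, moves bile acids, steroid conjugates, thyroid hormones and prostaglandins. Most of these carriers are best known in the proximal tubule, and several of the rodent genes differ in level between male and female kidneys.

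Total counts on genes were 17183358 to 18205023 in the Control libraries and 18150442 to 20871173 in the KSPAPN libraries. *Adipoq*, the induced gene, had 2, 0 and 2 counts in Control and 24629, 17483 and 26811 in KSPAPN, matching the labels. The submitters' extraction text speaks of liver while the tissue is labelled kidney. Kidney markers were abundant in every library, for example *Slc34a1*, the phosphate carrier of the proximal tubule, at 980 FPKM or more, and the 10 hepatocyte genes examined had very unequal levels. *Ttr* (69.6 to 145 FPKM in Control), *Apoc3* (8.13 to 12.1) and *Fga* (4.88 to 7.80) were present, *Alb* ranged from 0.275 to 4.46 FPKM over the 6 libraries, and *Cps1* and *Tat* were at 0 in all Control libraries. *Ahsg* had 1, 0 and 1 counts in Control and 2, 14 and 15 in KSPAPN, and *Cps1* had 1, 14 and 31 in KSPAPN, so both were highest in KSPAPN replicates 2 and 3. KSPAPN replicate 1 stood apart for these carriers: it had the lowest normalized count of the KSPAPN libraries in 18 of the 28 carriers tested and in 10 of the 10 tested anion carriers, against 36.5% of all genes tested. The counts and class medians, and the carriers whose value or call moved most, are also given without it.

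The edgeR quasi-likelihood test (two-sided, Benjamini-Hochberg adjustment over 16017 genes) called 6 carriers lower in KSPAPN and 0 higher, taking an adjusted p under 0.05 as the threshold. Over all genes tested, 2.25% were called lower and 0.393% higher. With no adjustment (p under 0.05), 12 carriers were lower and 2 higher, against 11.2% and 7.52% of all genes. The normalized counts of the groups did not overlap in 12 lower and 2 higher carriers, against 13.1% and 11.4% of all genes, and DESeq2 called 10 lower and 1 higher, against 4.65% and 1.13%. The direction was lower for 21 of the 28 carriers tested and for 48.1% of all genes. The median log2 fold change (KSPAPN over Control) was -0.34 over the carriers and 0.012 over all genes. By class, the median was -0.75 for the 10 tested anion carriers, -0.29 for the 6 cation carriers, -0.095 for the 4 other *Slc22* genes and -0.053 for the 8 *Slco* genes. The *Slco* median was 0.0046 with total-count scaling. With the GC and length trend removed the median was -0.19 over all carriers tested, -0.67 over the anion, -0.19 over the cation and -0.10 over the *Slco* genes. Without KSPAPN replicate 1, 7 carriers were called lower and the medians were -0.53 for the anion, -0.22 for the cation and -0.0026 for the *Slco* genes. The test was run on bulk tissue, in which fewer cells of a type and less RNA per cell cannot be told apart.

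**Figure D1:**
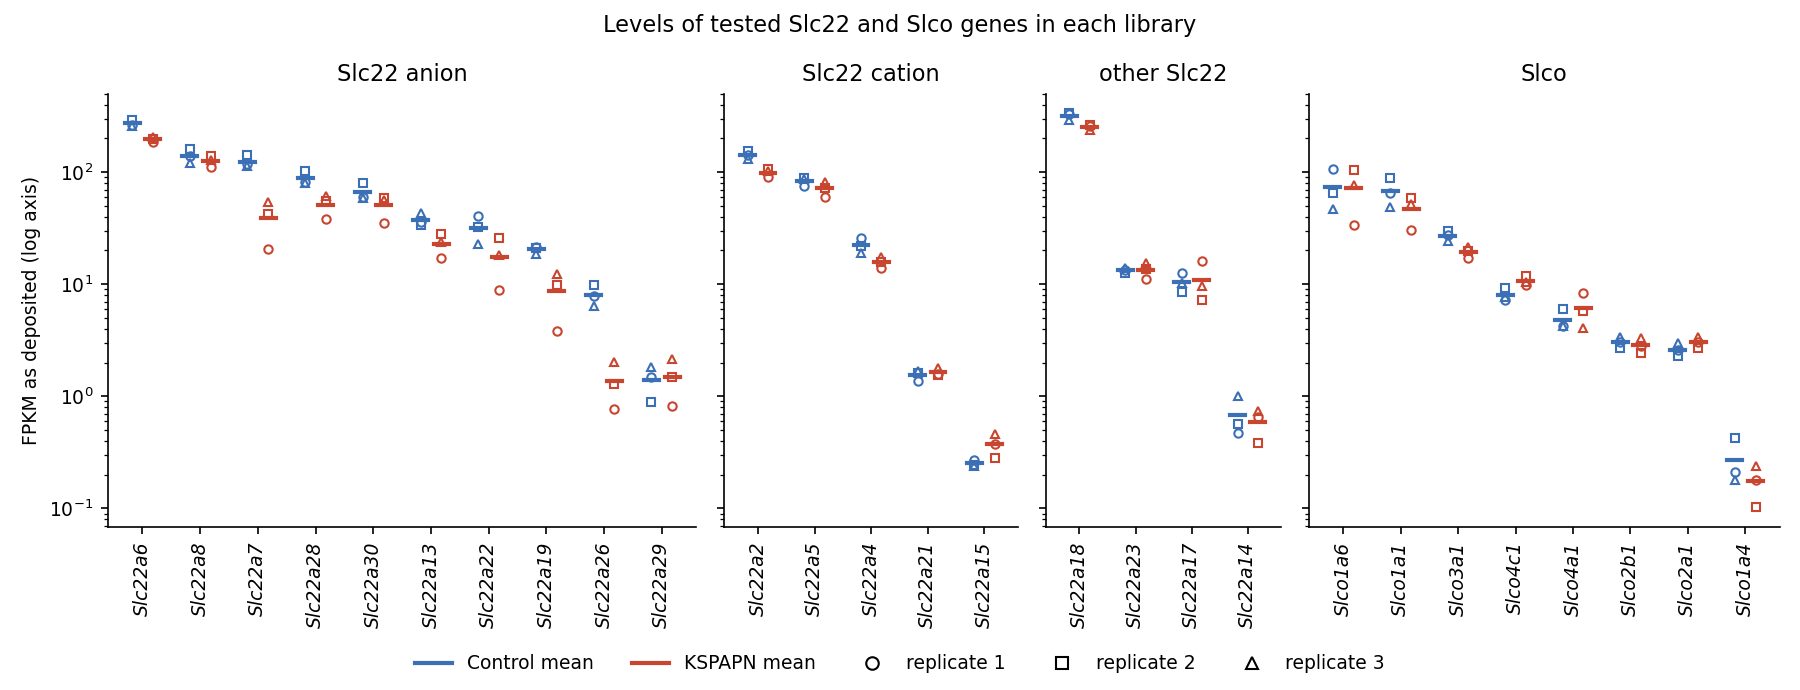
Deposited FPKM (log axis) of 27 of the 28 carriers tested, in 4 classes ordered by Control mean. Blue marks are Control and red marks KSPAPN libraries, with one symbol per replicate number and a bar at each group mean; the Slc22a26 and Slc22a7 groups lie farthest apart, and the Slco1a6 groups overlap almost completely.

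Levels are given as FPKM, which divides the read count by gene length and library size so that genes can be set side by side. The highest Control mean belonged to *Slc22a18*, an orphan carrier from an imprinted region (318 FPKM, rank 89 of the protein-coding genes). *Slc22a6* had 272 FPKM (rank 117). *Slc22a2* (142 FPKM), *Slc22a8* (141 FPKM) and *Slc22a7* (124 FPKM) were also above 100 FPKM, and the first 2 of these differed by less than their spread. The highest *Slco* genes were *Slco1a6* at 73.4 ± 31 FPKM and *Slco1a1* at 67.6 ± 19 FPKM (SD, n = 3), which did not differ beyond their spread either. The summed FPKM of the anion class was 772, 877 and 722 in the Control libraries and 423, 559 and 564 in the KSPAPN libraries, and the groups did not overlap. The cation class gave 473, 496 and 456 against 335, 388 and 364 FPKM, also apart. The *Slco* sums, 218, 204 and 139 against 105, 207 and 173 FPKM, overlapped.

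The promoter of *Slc22a26* is shown because this gene had the lowest fitted fold change of the carriers. It runs from 250 bases before to 50 bases after the RefSeq start in GRCm38.p6, at chr19:7802618-7802917 on the minus strand, and is read 5′ to 3′ along the gene. Capitals mark matches to AGAACA, the core letters bound by steroid receptors, read as TGTTCT on the other strand.
Slc22a26: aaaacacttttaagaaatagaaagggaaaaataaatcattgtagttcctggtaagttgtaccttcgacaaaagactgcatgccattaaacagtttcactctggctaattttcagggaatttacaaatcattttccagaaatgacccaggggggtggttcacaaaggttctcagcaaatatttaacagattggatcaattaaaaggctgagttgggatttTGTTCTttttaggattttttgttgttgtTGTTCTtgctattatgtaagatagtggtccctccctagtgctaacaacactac

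In *Slc22a26* the AGAACA letters begin 31 and 3 bases upstream of the start, both on the antisense strand. A promoter entry was found for 33 of the 38 carriers. On both strands, AGAACA was present in 7 carriers (*Slc22a18*, *Slc22a19*, *Slc22a22*, *Slc22a26*, *Slco2b1*, *Slco4a1* and *Slco4c1*) and in 18.97% of all promoters. AGGTCA, a nuclear receptor half-site, was present in 5 carriers and 16.3%, and CAAAGTCCA, an HNF4 sequence, in 0 carriers and 0.475%.

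Among the anion carriers, 9 of the 10 tested were lower and 5 were called. *Slc22a26*, a rodent gene of the chromosome 19 array (ENSMUSG00000053303, chr19:7781041-7802667), had 7.85, 9.85 and 6.37 FPKM in Control and 0.772, 1.28 and 2.03 in KSPAPN. Every KSPAPN library lay below every Control library, and the fitted level was 0.170 times that of Control (log2 fold change -2.56, SE 0.30, adjusted p = 0.00581). It was called with each of the 6 libraries left out in turn and under all 9 other settings, limma included.

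*Slc22a7* (OAT2, chr17:46432183-46438457), a carrier of cyclic nucleotides, nucleobases and organic anions, had 118, 141 and 113 FPKM in Control and 20.5, 41.9 and 53.7 in KSPAPN. The groups did not overlap, and the fitted level was 31.2% of Control (log2 fold change -1.68, SE 0.27, adjusted p = 0.0136). KSPAPN replicate 1 was the lowest library, and without it the log2 fold change was -1.36 (adjusted p = 0.00230). The call was lost without Control replicate 1 (adjusted p = 0.0674) and in limma on FPKM.

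*Slc22a6* (OAT1, chr19:8618039-8628299), the basolateral para-aminohippurate and dicarboxylate exchanger, had 265, 293 and 257 FPKM in Control and 187, 197 and 206 in KSPAPN. All KSPAPN libraries were lower, at a fitted 72.6% of Control (log2 fold change -0.46, SE 0.098, adjusted p = 0.0388). *Slc22a8* (OAT3, chr19:8591254-8611835), the basolateral carrier of bulkier anions such as steroid sulfates, had 140, 162 and 120 against 111, 140 and 128 FPKM. These groups overlapped (log2 fold change -0.15, SE 0.13, adjusted p = 0.569), and the value was -0.053 without KSPAPN replicate 1. The ratio of *Slc22a6* to *Slc22a8* FPKM within a library, examined after the values were seen, was 1.95 ± 0.18 in Control and 1.57 ± 0.14 in KSPAPN (SD, n = 3, two-sided exact permutation p = 0.1, the smallest that 3 against 3 allows). *Slc22a6* was itself called and *Slc22a8* was not, so the ratio adds no independent evidence. The call of *Slc22a6* was lost in 5 of the 6 fits with a library left out, that is in all but the fit without KSPAPN replicate 1 (adjusted p 0.0460 to 0.144), and with total-count scaling (adjusted p = 0.0521).

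*Slc22a28*, another gene of the chromosome 19 array (chr19:8062209-8131982), had 81.3, 103 and 79.6 FPKM in Control and 37.8, 54.7 and 61.2 in KSPAPN. The KSPAPN libraries were all lower (log2 fold change -0.77, SE 0.16, adjusted p = 0.0388). Of its transcript sequence, 37.0% consists of 100-base stretches also found in *Slc22a30*, *Slc22a29* or *Slc22a27*, so its counts are uncertain, and the call held in 1 of the 6 fits with a library left out, the one without KSPAPN replicate 1 (log2 fold change -0.58).

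*Slc22a13* (OAT10, chr9:119192974-119209098), a nicotinate and urate carrier, had 36.0, 34.0 and 43.3 FPKM in Control and 17.2, 28.1 and 23.6 in KSPAPN. The groups did not overlap, with a log2 fold change of -0.72 (SE 0.16, adjusted p = 0.0460). It lies on the same strand within the span of *Slc22a14* and shares 21.8% of its sequence in 100-base stretches with the pseudogene *Slc22a13b-ps*. Among the fits with a library left out, the call held without KSPAPN replicate 1 (log2 fold change -0.53) and without KSPAPN replicate 2, and it was lost with RLE factors, with total-count scaling (adjusted p = 0.0661) and with the GC and length trend removed (adjusted p = 0.118).

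The anion carriers that did not pass the test included *Slc22a19* (OAT5, a steroid sulfate carrier), with 21.7, 21.2 and 18.6 FPKM in Control and 3.80, 9.83 and 12.3 in KSPAPN. These groups did not overlap although the adjusted p was 0.0650 (log2 fold change -1.25, SE 0.31). KSPAPN replicate 1 was the lowest, and without it the log2 fold change was -0.87 with an adjusted p of 0.00576. *Slc22a19* also passed with the GC and length trend removed (adjusted p = 0.0352), with the replicate block (adjusted p = 0.0402) and without a filter. It did not pass with DESeq2 (adjusted p = 0.0964), with the other scalings or in limma. *Slc22a22*, a prostaglandin-specific carrier, gave -0.86 (adjusted p = 0.176), *Slc22a30* -0.39 (adjusted p = 0.282) and *Slc22a29* 0.08 (adjusted p = 0.938). Without KSPAPN replicate 1, *Slc22a22* was at -0.52 and *Slc22a30* at -0.18. *Slc22a29* turned to -0.0082 with the GC and length trend removed. *Slc22a27* was too low for the main test, with 3, 10 and 9 counts in Control and 0, 1 and 0 in KSPAPN. That is 22 against 1 count, a ratio of 0.0412 per total count (95% exact interval 0.000998 to 0.255, counting error only). The fit without a filter included *Slc22a27* and did not call it. Of its sequence, 7.65% lies in 100-base stretches shared with *Slc22a29*, *Slc22a19* or *Slc22a28*. *Slc22a20* (OAT6, an olfactory carrier) was at 0 in all libraries.

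**Figure D2:**
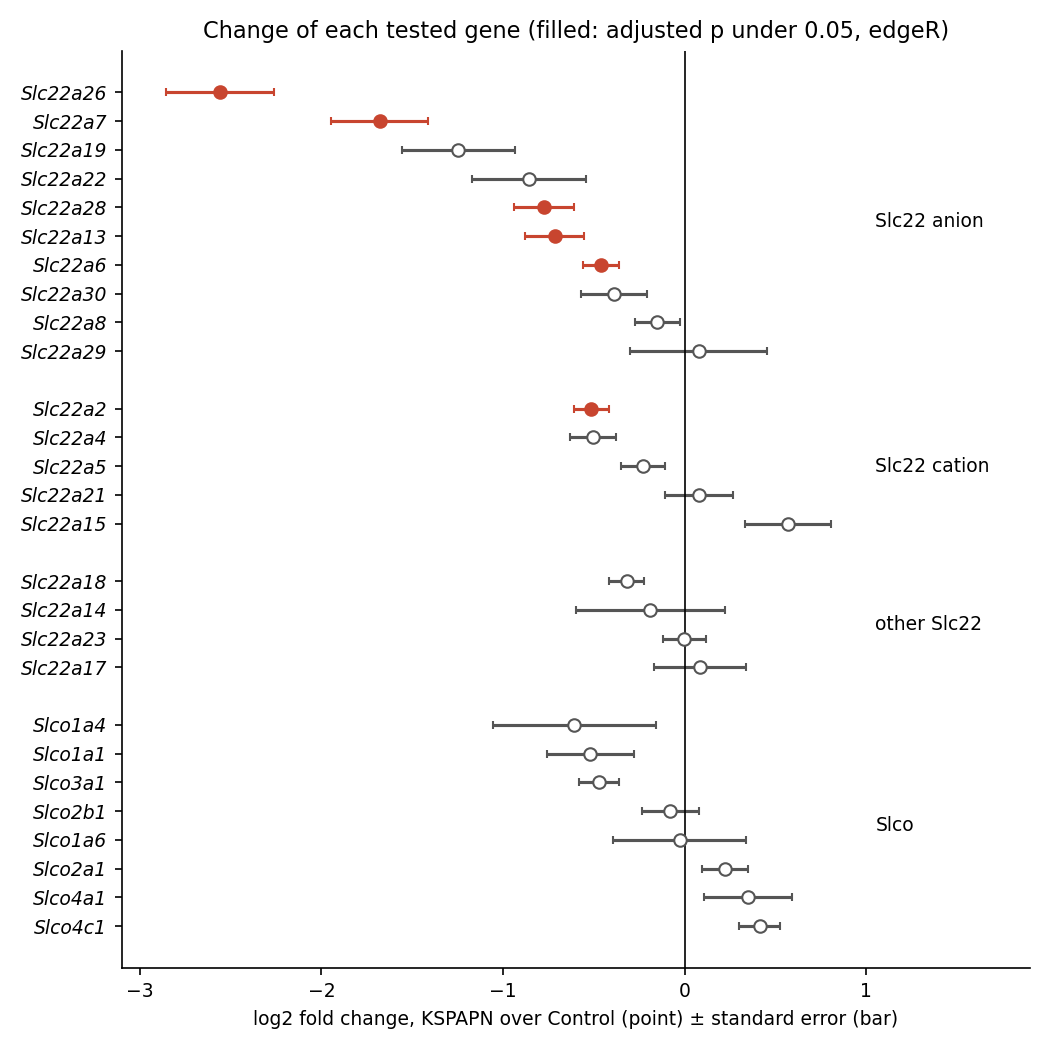
Fitted log2 fold change (KSPAPN over Control, horizontal axis) with its standard error for 27 of the 28 carriers tested, by class; filled red points passed an adjusted p under 0.05. The filled points, 5 anion genes and Slc22a2, all lie left of 0, and the Slco genes spread to both sides.

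In the cation and carnitine class, 1 of the 6 tested carriers was called. *Slc22a2* (OCT2, chr17:12584132-12628488), the main basolateral cation carrier of the rodent proximal tubule, had 141, 154 and 132 FPKM in Control and 90.3, 106 and 102 in KSPAPN. The groups did not overlap, and the fitted level was 70.0% of Control (log2 fold change -0.51, SE 0.098, adjusted p = 0.0259). The call was lost without Control replicate 1, Control replicate 2 or KSPAPN replicate 3, with adjusted p from 0.033 to 0.118 over the 6 fits.

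*Slc22a3* (OCT3), a cation carrier on the same chromosome, was too low to be tested, with 3, 6 and 1 counts against 7, 7 and 4, and it overlaps *Plg*.

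*Slc22a4* (OCTN1), the ergothioneine carrier, had 25.9, 21.8 and 19.1 FPKM in Control and 13.9, 15.7 and 17.3 in KSPAPN. The groups did not overlap (log2 fold change -0.51, SE 0.13, adjusted p = 0.0654). *Slc22a4* passed with DESeq2 (adjusted p = 0.0141) and without a filter, but not with the GC and length trend removed (adjusted p = 0.0990). *Slc22a5* (OCTN2), the carnitine carrier, had 75.3, 89.3 and 87.5 against 60.3, 71.7 and 82.5 FPKM, which overlapped (log2 fold change -0.23, adjusted p = 0.347, and -0.11 without KSPAPN replicate 1). *Slc22a21*, the adjacent carnitine carrier, gave 0.08 (adjusted p = 0.863) and shares 12.1% of its sequence in 100-base stretches with *Slc22a5*. *Slc22a15*, a carrier of zwitterions, lay higher in every KSPAPN library at 0.252 ± 0.018 against 0.372 ± 0.089 FPKM (SD, n = 3) but did not pass (log2 fold change 0.57, adjusted p = 0.234). *Slc22a16*, a carnitine carrier of testis, was at 0 in all libraries.

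The other *Slc22* genes gave no call in the edgeR test. *Slc22a18* had 327, 336 and 291 FPKM in Control and 256, 266 and 240 in KSPAPN. The groups did not overlap (log2 fold change -0.32, SE 0.096, adjusted p = 0.110). It passed with DESeq2 (adjusted p = 0.0400), and its log2 fold change was -0.13 (adjusted p = 0.504) with the GC and length trend removed. *Slc22a17*, described as a lipocalin receptor, gave 0.09 (adjusted p = 0.891), *Slc22a23*, an orphan, -0.00097 (adjusted p = 0.998), and *Slc22a14*, a riboflavin carrier of sperm, -0.19 (adjusted p = 0.845).

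In the *Slco* family 8 of 14 genes were tested and 0 were called, with 1 lower and 1 higher before adjustment. *Slco3a1*, a broadly expressed prostaglandin and bile acid carrier, had 27.2, 29.7 and 24.4 FPKM in Control and 17.2, 19.7 and 21.6 in KSPAPN. Its groups did not overlap, and it missed the threshold (log2 fold change -0.47, SE 0.11, adjusted p = 0.0519). It passed with DESeq2 (adjusted p = 0.00415), without a filter (adjusted p = 0.000647) and with the GC and length trend removed (adjusted p = 0.0485). The fit without a filter also passed *Slco1a1*, whose groups overlapped. *Slco4c1*, the basolateral digoxin and thyroid hormone carrier of the renal tubule, had 7.27, 9.19 and 7.70 against 9.92, 11.7 and 10.4 FPKM. It lay higher in every KSPAPN library (log2 fold change 0.41, SE 0.11, adjusted p = 0.0840), and passed with DESeq2 (adjusted p = 0.0472), with total-count scaling (adjusted p = 0.0495) and without a filter (adjusted p = 0.0226). With the GC and length trend removed its log2 fold change was 0.25 (adjusted p = 0.129), and in limma on log2(FPKM + 1) the adjusted p was 0.141. The ratio of *Slco3a1* to *Slco4c1* FPKM, examined after the values were seen, was 3.38 ± 0.32 in Control and 1.83 ± 0.22 in KSPAPN (SD, n = 3, exact permutation p = 0.1, the smallest possible). Both genes already lay apart between groups, in opposite directions, so the ratio had to separate and adds no independent evidence.

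*Slco1a1*, an apical carrier of steroid conjugates and bile acids, had 65.7, 87.8 and 49.3 FPKM in Control and 30.3, 59.1 and 51.9 in KSPAPN. The groups overlapped (log2 fold change -0.52, SE 0.24, adjusted p = 0.282), and the value was -0.27 without KSPAPN replicate 1. Without a filter, edgeR passed *Slco1a1* in spite of the overlap (SE 0.11, adjusted p = 8.4e-05). *Slco1a6*, its kidney-enriched relative, had 108, 65.8 and 46.9 against 33.5, 105 and 77.6 FPKM. These libraries varied more within than between groups, and the log2 fold change of -0.03 (adjusted p = 0.981) ran from -0.39 to 0.35 with a library left out. *Slco1a4*, an organic anion carrier of liver and brain vessels, was low at 0.270 ± 0.13 against 0.175 ± 0.069 FPKM (SD, n = 3, log2 fold change -0.61, edgeR adjusted p = 0.508).

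*Slco2a1*, the prostaglandin transporter, had 2.59, 2.27 and 2.97 FPKM in Control and 3.04, 2.71 and 3.35 in KSPAPN, with overlap (log2 fold change 0.22, adjusted p = 0.373). *Slco2b1*, a carrier of steroid sulfates, had 3.04, 2.69 and 3.40 against 2.82, 2.44 and 3.34 FPKM, also overlapping (log2 fold change -0.08, adjusted p = 0.829). *Slco4a1*, a thyroid hormone carrier, gave 0.35 (adjusted p = 0.476), with 936, 505 and 407 counts in the KSPAPN libraries, and 0.049 without KSPAPN replicate 1. *Slco1a6*, *Slco2a1*, *Slco2b1*, *Slco3a1* and *Slco4c1* each overlap an antisense or neighbouring transcript, and the strand setting of the counting is not known. Of the *Slco* genes not tested, *Slco6c1* and *Slco6d1*, genes of testis, were at 0 in all libraries, and *Slco1a5*, *Slco1b2* (the hepatocyte carrier), *Slco1c1* (a thyroxine carrier of brain) and *Slco5a1* had at most 9 counts in any library.

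By position, 8 of the anion genes lie in a stretch of 955 kb on chromosome 19 (chr19:7673061-8628299, GRCm38), of which 7 were tested and 3 called. Along this stretch the log2 fold change ran from -2.56 (*Slc22a26*) to 0.08 (*Slc22a29*), so neighbours differed widely in their values. *Slc22a28* and *Slc22a30* are separated only by *Slc22a29* among the carriers, and their FPKM ratio was examined after the values were seen. It was 1.33 ± 0.043 in Control and 1.02 ± 0.080 in KSPAPN (SD, n = 3, exact permutation p = 0.1, the smallest possible). *Slc22a28* was itself called and *Slc22a30* was not, and they share sequence as given above, so the ratio adds no independent evidence. The tested genes of the chromosome 11 trio (164 kb) were at -0.51 to 0.08, and those of the chromosome 6 *Slco1* stretch (799 kb) -0.61 to -0.03.

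**Figure D3:**
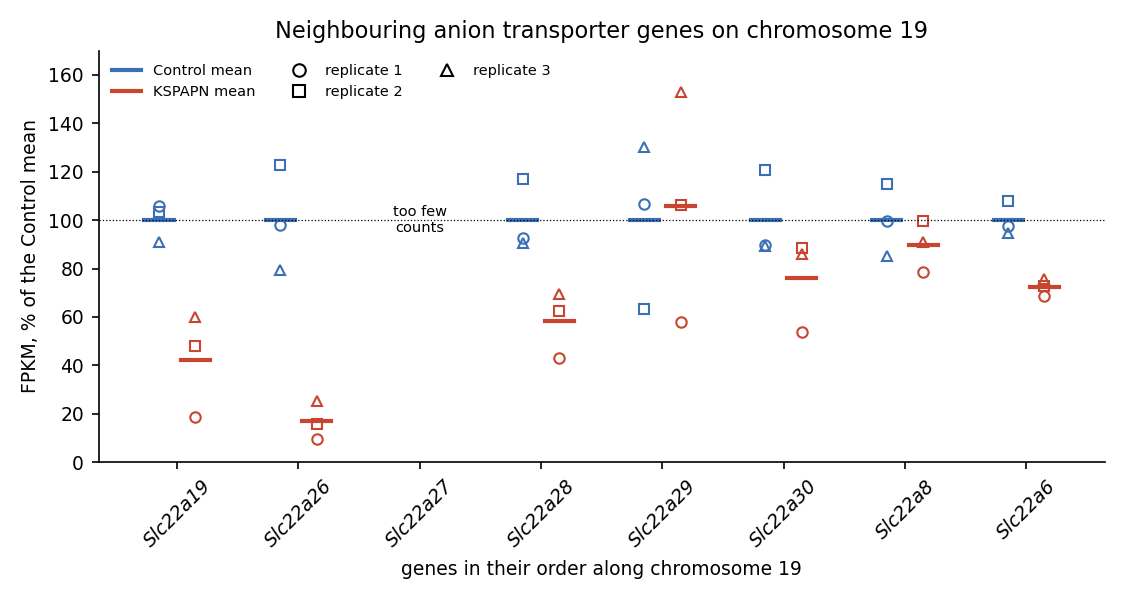
FPKM of each library as a percent of the Control mean (vertical axis) for the anion carrier genes in their order along chromosome 19, Control in blue and KSPAPN in red, with bars at the group means. Slc22a26 and Slc22a19 lie lowest in KSPAPN, Slc22a8 and Slc22a29 overlap Control, and Slc22a27 had too few counts.

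Of the partner genes, which supply, anchor or complete this transport, 2 of 25 were called lower and 0 higher, and 20 of 25 were lower (median log2 fold change -0.26), where all genes tested gave 2.25% called lower, 0.393% called higher and 48.1% lower. Of these, *Slc51a*, a subunit of the basolateral organic solute transporter, had 19.6, 22.6 and 16.8 FPKM in Control and 6.79, 8.67 and 9.82 in KSPAPN. The groups did not overlap (log2 fold change -1.22, SE 0.15, adjusted p = 0.00581). *Abcb1b*, a multidrug efflux pump, had 1.01, 0.794 and 0.719 against 0.263, 0.383 and 0.393 FPKM, also apart (log2 fold change -1.28, SE 0.24, adjusted p = 0.0256), and its call was lost without Control replicate 1, Control replicate 2 or KSPAPN replicate 3.

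The apical exit routes listed by role, a list that does not hold the called pump *Abcb1b*, did not pass the edgeR test. *Slc47a1* (MATE1), the proton exchanger that passes cations on to urine, had a log2 fold change of -0.43 (adjusted p = 0.178). The pumps *Abcc2*, *Abcc4* and *Abcg2* had values of -0.08, -0.01 and -0.26, and the phosphate-family anion carriers *Slc17a1* and *Slc17a3* -0.66 (adjusted p = 0.0739) and -0.46 (adjusted p = 0.159). *Slc17a1* passed with DESeq2 (adjusted p = 0.00192), without a filter and with the GC and length trend removed (adjusted p = 0.0355), and *Slc17a3* with DESeq2 (adjusted p = 0.0432) and without a filter. Without KSPAPN replicate 1 the values of *Slc47a1*, *Slc17a3* and *Abcg2* were -0.25, -0.28 and -0.12. *Slc13a3*, the basolateral dicarboxylate carrier that supplies the exchange of *Slc22a6*, had 118, 152 and 124 FPKM in Control and 89.97, 98.2 and 92.1 in KSPAPN. Its groups did not overlap (log2 fold change -0.49, SE 0.11, adjusted p = 0.0503), and it passed with DESeq2 (adjusted p = 0.00165) and without a filter. *Hnf4a*, a transcription factor of the proximal tubule, was at 0.03 (adjusted p = 0.905).

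**Figure D4:**
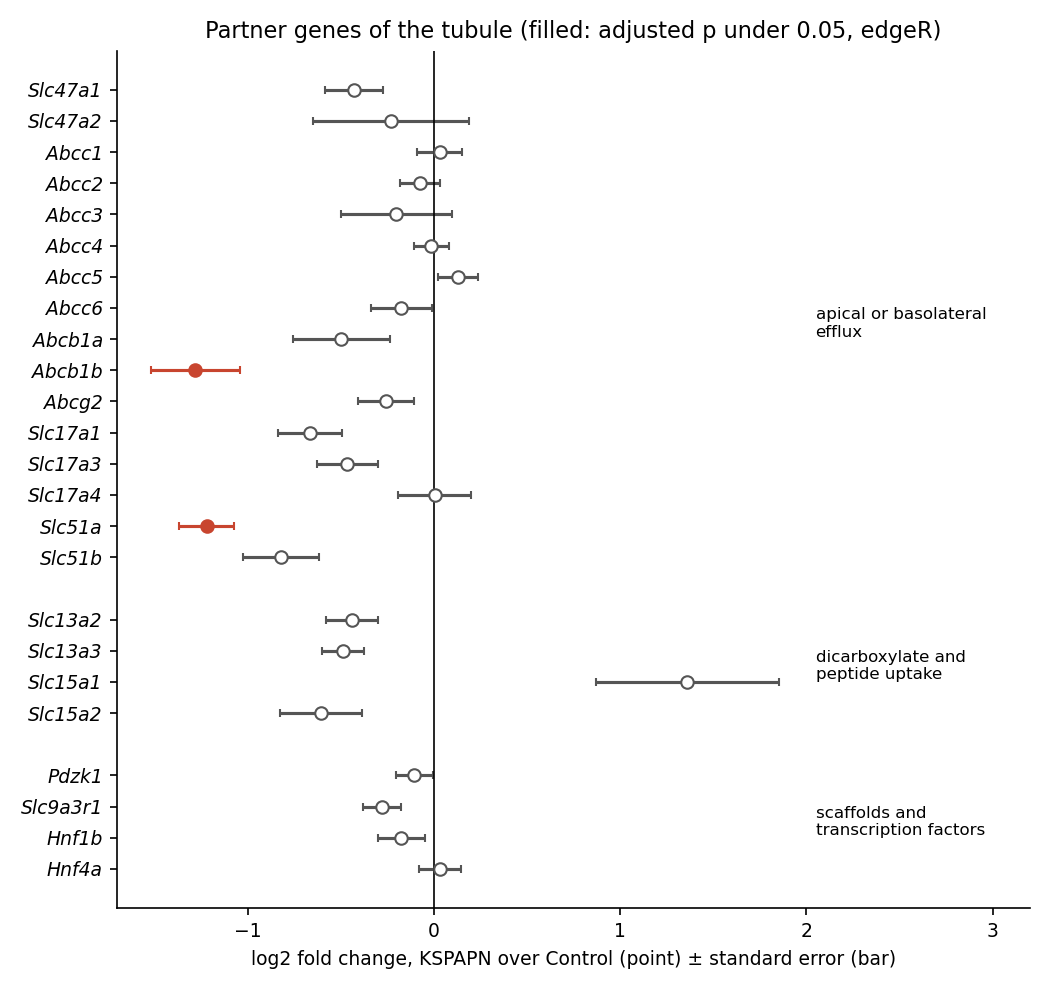
Fitted log2 fold change with its standard error for 24 of the 25 partner genes, grouped by role; filled red points passed an adjusted p under 0.05. Slc51a and Abcb1b are filled, and most points lie left of 0.

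Markers of other parts of the nephron were set beside these results. Of 14 proximal tubule markers 12 were lower and 1 was called (*Miox*, which opens the inositol ring, at -0.60), with a median of -0.24 and a summed level of 3852 to 4472 FPKM in Control and 3382 to 3670 in KSPAPN. Of 7 markers of the late proximal tubule (S3) 6 were lower and 2 called, *Slc7a13* (an aspartate and glutamate carrier, -1.46) and *Cyp7b1* (a steroid hydroxylase, -2.10). The S3 median was -0.38, and the summed level was 847 to 1099 FPKM in Control and 496 to 689 in KSPAPN, without overlap. The medulla and distal markers had a median of 0.087, with 5 of 11 lower and 6 higher, and 1 called higher and 0 lower. With no adjustment (edgeR p under 0.05), 3 of them were lower (*Slc4a1* -0.71, *Slc12a3* -0.36 and *Aqp3* -0.32) and 1 was higher (*Slc12a1* 0.52). The 6 glomerular markers were all above 0 with 0 called (median 0.19). The endothelial list had a median of 0.010 with 0 of 6 called, and of the immune, hepatocyte and adipocyte lists 4, 7 and 2 genes were high enough to test, with a call only for *Ttr*, a thyroxine carrier (-1.17), which sets most of the hepatocyte sum of 92.1 to 171 FPKM in Control and 60.3 to 94.3 in KSPAPN. Of the adipocyte list, *Lep*, the adipocyte hormone, was at 0 in all Control libraries, and the others had low counts there. These were 17, 6 and 13 for *Cfd*, 12, 6 and 11 for *Cidec*, 4, 1 and 7 for *Plin1*, 7, 3 and 3 for *Retn* and 7, 1 and 3 for *Adrb3*. Of 8 genes known to be high in male mouse kidney 8 were lower and 2 called (*Cyp4a12b* and *Cyp7b1*, median -0.67), and of 6 known to be high in female kidney 6 were lower and 1 called (*Cyp4a14*, median -1.21). Their summed levels overlapped between groups, at 22849 to 34828 against 16163 to 27125 FPKM for the male list and 188 to 417 against 83.0 to 225 FPKM for the female list. Most of each sum comes from a single gene, *Kap* in the male list (mean 26157 FPKM in Control) and *Cyp2a4* in the female list (mean 276 FPKM). Control replicate 2 was the highest Control library in 7 of the 8 male genes, and Control replicate 1 had 407 counts of *Slc7a12* against 22 and 83 in the other Control libraries and 1013 of *Prlr* against 103 and 347. KSPAPN replicate 1 was the lowest KSPAPN library in 12 of the 14 proximal tubule and 7 of the 7 S3 markers. The part of tubule segment, of sex-dependent expression and of this library in the carrier results was not tested.

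The 6 calls were compared across settings. All 6 held with DESeq2, without a filter and with mitochondrial genes and *Adipoq* left out of the scaling, 5 held with RLE factors and with the GC and length trend removed, 4 with total counts, and 1, *Slc22a26*, in limma. Without a filter the SE fell from 0.37 to 0.11 for *Slco1a6* and from 0.24 to 0.11 for *Slco1a1*, both with overlapping groups. A pass without a filter, here and above, therefore adds little. The number of carriers called lower was 1, 2 and 3 without Control replicate 1, 2 and 3 respectively, and 7, 4 and 2 without KSPAPN replicate 1, 2 and 3.

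**Figure D5:**
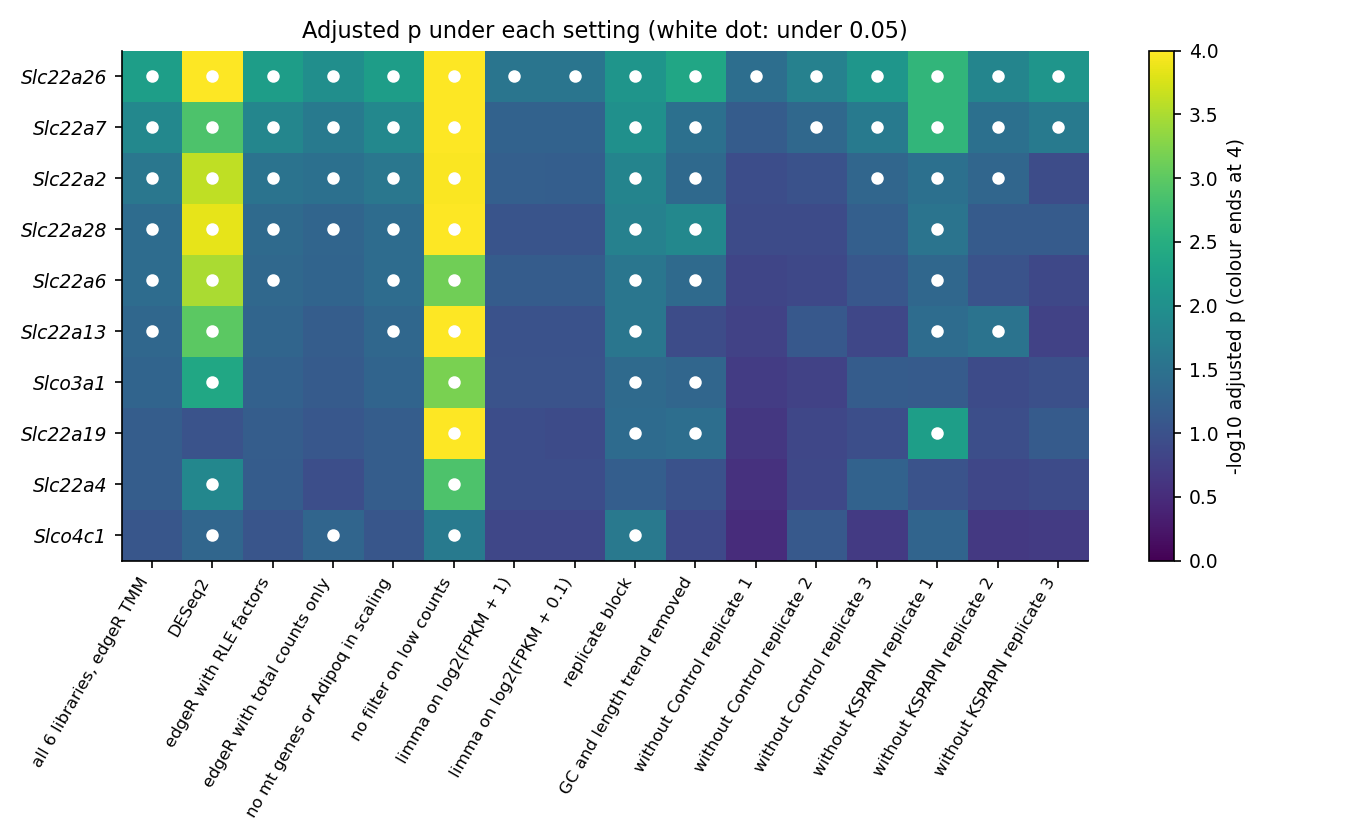
Adjusted p (colour, as -log10) of the 6 called carriers and of 4 others near the threshold, in rows, under each of 16 fits, in columns; a white dot marks an adjusted p under 0.05. Slc22a26 has a dot in every column, and no other row has one in the limma columns. The other called carriers lose their dots in some columns with a library left out, and keep them without KSPAPN replicate 1. Slc22a19, without a dot in the main fit, has one there.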

How the data were processed

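RNA-seq of whole kidneys was analysed in 6 pooled libraries (3 Control, 3 KSPAPN, 3 mice per pool). The authors deposited, for each library, raw read counts per gene and FPKM. The counts are whole numbers without normalization, and the deposited FPKM are the authors' scaling by gene length and library size. The submitters' processing notes name STAR 2.5, TopHat, HTSeq 0.6.1, DESeq2 and edgeR with no role; for these data the build, annotation and strand setting were not given in the sources used here. Symbols and coordinates came from GENCODE M21 (GRCm38) for 54495 of the 54532 identifiers.

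The main test was edgeR 4.0.16 in R 4.3.3 on the counts (TMM, minimum count 10, minimum total 15, quasi-likelihood, two-sided, Benjamini-Hochberg over 16017 genes, 28 carriers among them), without a replicate block. Overlap between groups was judged on normalized counts. DESeq2 1.42.0, limma 3.58.1 on log2(FPKM + 1) and log2(FPKM + 0.1), other scalings, no filter, a replicate block, removal of a GC and length trend and each library left out were alternatives. Replicate numbers were judged not to pair the libraries (same-number correlations 0.0537, 0.154 and 0.173, not all above 0.1). On simulated counts with 200 of 16017 genes changed, edgeR recovered 86.5% (99% of 4-fold and 74% of 2-fold changes) with 3.89% false calls under trended dispersions, and 86% with 8.02% false calls under per-gene dispersions. Changes below 2-fold, as fitted for *Slc22a6*, *Slc22a2*, *Slc22a13* and *Slc22a28*, were not simulated, nor was a library that stands apart. The simulated rates therefore do not describe those calls. The carriers, classes and lists were chosen with earlier results of these data known. Carriers were described library by library where called, where highest in their class, or by a list of roles, and others by their fold change or counts; results for 1 carrier and 1 partner gene are not reported here. The interval of *Slc22a27* was computed on counts summed over the libraries of each group, so it covers counting error only and not the spread between pools. Reads had no molecular identifiers, so copies of 1 molecule could not be told apart. Per-sample columns left unused numbered 0.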

Additional observations from a re-analysis of the deposited data

How the results depend on the processing

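With 3 pools per group and adjusted p near the threshold, most calls beyond *Slc22a26* depended on the setting, and the cause was not tested. Carriers called lower numbered 6, and 10 with DESeq2, 13 without a filter, 1 in limma with either pseudocount, 10 with the replicate block and 1 to 7 with a library left out. Carriers called higher numbered 0, and 1 (*Slco4c1*) with DESeq2, with total-count scaling, without a filter and with the replicate block. Partners called lower numbered 2, and 8 with DESeq2, 10 without a filter, 1 in limma with either pseudocount, 7 with the replicate block and 1 to 4 with a library left out. Over all genes, 361 were called lower, and 744 with DESeq2, 195 with total counts, 1038 without a filter, 118 and 109 in limma, 705 with the replicate block and 34 to 571 with a library left out, the fewest without Control replicate 1, with 116 without Control replicate 2 and 60 without KSPAPN replicate 3, and the most without KSPAPN replicate 1. For genes called higher, 63 became 181 with DESeq2, 301 without a filter, 10 in limma with either pseudocount, 224 with the replicate block, 95 with the GC and length trend removed and 5 to 162 with a library left out.

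Each library correlated best with that of its own number, a hint from the data and not from the design. Of 252 carrier values in other settings 5 changed sign, in 3 genes, and of 168 with a library left out 14 did, in 7 genes. In the main fit the values of these carriers ran from -0.19 (*Slc22a14*) to 0.09 (*Slc22a17*). With a library left out, changed values were not all small and reached 0.35 (*Slco1a6*) and -0.29 (*Slc22a29* and *Slc22a17*). With total counts the values of changed sign were 0.0046 (*Slco* median), 0.020 (*Slco1a6*), 0.062 (*Slc22a23*) and 0.056 (*Abcc4*), with the GC and length trend removed -0.0082 (*Slc22a29*) and 0.018 (*Slc22a23*), and with RLE factors 0.0016 (*Slc22a23*). With a library left out the ranges were -0.16 to 0.067 (*Slco* median), -0.39 to 0.35 (*Slco1a6*), -0.20 to 0.028 (*Slco2b1*), -0.29 to 0.39 (*Slc22a29*), -0.013 to 0.14 (*Slc22a21*), -0.40 to 0.20 (*Slc22a14*), -0.29 to 0.32 (*Slc22a17*), -0.11 to 0.13 (*Slc22a23*), -0.12 to 0.023 (*Abcc2*), -0.044 to 0.029 (*Abcc4*) and -0.066 to 0.15 (*Hnf4a*).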
